A study of Mus musculus with 17 samples.

Results

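The cytosolic ribosome of the mouse is built from ribosomal RNA and a large family of ribosomal proteins, whose genes are described here. The members were chosen by name: protein-coding genes whose official symbol is Rpl or Rps followed by a number, with or without the endings a or x, together with Rplp0, Rplp1, Rplp2 and Rpsa. Of the 24594 genes in the expression table, 76 met that rule, 46 of the large subunit and 30 of the small subunit. Of these, 4 lie on the X chromosome (Rpl10, Rpl36a, Rpl39 and Rps4x) and 72 on autosomes. The symbol rule leaves out some components of the same ribosome, of which Rps3a1, Fau and Rack1 are described separately below. RNA was measured by sequencing of total RNA from male germ cells that had passed their last DNA replication. For each of 5 stages, 3 libraries came from cells of C57BL/6JRj wild-type adults, 3 months old per the labels, whose dissociated testes were stained with the nucleic acid dyes Hoechst 33342 and SYTO 16 and sorted by flow cytometry. The stages, with the short names used in the plots, were leptotene/zygotene spermatocytes in early meiotic prophase (LZ), pachytene/diplotene spermatocytes later in that prophase (PD), the round spermatids that follow meiosis (RS), and elongating spermatids taken early (EES) or late (LES) in the reshaping of the nucleus. The remaining 2 libraries have no replicate: round spermatids from juveniles 23 days after birth (RS23 in the plots), and elongating spermatids sorted on a Prm1-EGFP reporter, a fluorescent protein driven by the protamine 1 gene (PrmES). Cells of both were stained with Hoechst 33342 alone. The labels give both of these the same wild-type and 3-month entries as the others although their titles differ.

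Ribosomal proteins of the small subunit help to bind and decode mRNA, and those of the large subunit surround the site of peptide bond formation, the exit tunnel and the binding sites of translation factors. Each ribosome carries about one copy of most of them, and in growing cells their mRNAs are abundant and are translated together through a pyrimidine-rich start known as the 5′ terminal oligopyrimidine tract. In the male germ line the X chromosome is silenced at pachytene and stays largely repressed in spermatids, and several X-linked or housekeeping ribosomal protein genes have autosomal copies that are used mainly in testis. Transcription then ends as spermatid chromatin is compacted, while stored mRNAs are still translated.

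The 15 stage libraries held between 90.6 and 137.8 M reads as recovered from the deposited values, and 48.4% to 87.7% of these lay in genes of the table. Levels are given in RPKM, the reads of a gene scaled to its exon length and to the library's total, and errors of stage means are SD with n = 3 libraries. Changes are log2 fold changes on the scale log2(RPKM + 0.01), and a gene is said to rise or fall where the change was at least 1 and limma's moderated test gave a p under 0.05 after Benjamini-Hochberg adjustment across the 13260 genes that entered the fit. All 76 members were among the genes tested. The labels do not say that libraries of one stage came from separate animals, so the p-values measure only the spread between these libraries, which may be technical; an exact permutation test of 3 libraries against 3 cannot give a p below 0.10. In these bulk populations, fewer cells of a type and less RNA per cell cannot be told apart. In 2 libraries, marker genes of a neighbouring stage were high: in leptotene/zygotene replicate 3 the summed level of the 5 pachytene/diplotene markers was 150 RPKM against 43.2 and 39.6 in the other two, and in early elongating replicate 2 that of the 5 round spermatid markers was 533 RPKM against 15 and 43.4. Markers of a distant stage were also present. The 5 elongating spermatid markers summed to 769, 951 and 1284 RPKM in leptotene/zygotene replicates 1, 2 and 3. In the pachytene/diplotene replicates they summed to 78.1, 63.5 and 251 RPKM, and in early elongating libraries to 46675 to 123582 RPKM. Their part in the results was not tested. On the deposited scale the median gene changed by -0.36 from leptotene/zygotene to pachytene/diplotene, by 0.02 to round spermatids, by -1.42 to early elongating and by 0.03 to late elongating spermatids. Directions below are on that scale, and it is said where centring each library on its median, or another scaling, turns one.

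Of the RNA counted in genes of the table, the share of the 76 members was largest in early meiosis. Their summed level was 2.26% ± 0.237 of the summed RPKM of all genes in leptotene/zygotene spermatocytes, 1.81% ± 0.196 in pachytene/diplotene spermatocytes, 1.32% ± 0.0223 in round spermatids, 0.945% ± 0.0411 in early and 0.980% ± 0.0380 in late elongating spermatids. The leptotene/zygotene libraries, 1.99% to 2.43%, all lay above the pachytene/diplotene libraries, 1.59% to 1.96%, which lay above the round spermatid libraries, 1.29% to 1.33%. The early elongating libraries, 0.920% to 0.992%, were lower again and overlapped the late elongating ones, 0.936% to 1.00%. Counted as a share of the reads in genes, which gives long and short exons their own weight, the members held 1.12% ± 0.128, 0.837% ± 0.111, 0.629% ± 0.0311, 0.626% ± 0.0791 and 0.674% ± 0.0344 in the same order. On that measure the round and elongating spermatids did not separate. Both shares leave out reads outside genes. On average 56.4% of reads lay in genes in leptotene/zygotene libraries and 75.8% in pachytene/diplotene libraries. Of all reads, members held on average 0.618 M of 98.9 M in the former and 0.773 M of 123 M in the latter. As a share of all reads, leptotene/zygotene thus had no lead over pachytene/diplotene.

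**Figure D1:**
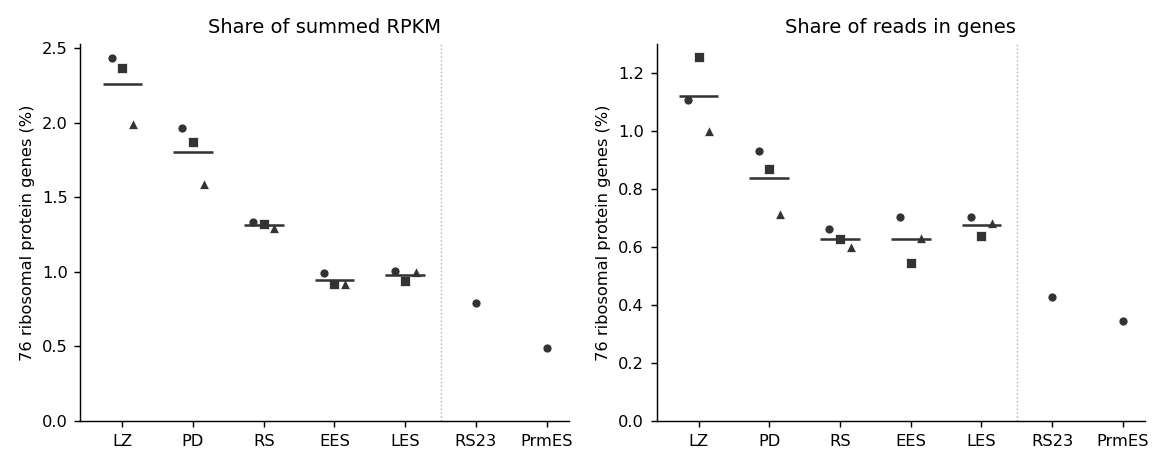
Share of the 76 cytosolic ribosomal protein genes in the signal of all genes, in percent of summed RPKM and of the reads in genes. The 15 stage libraries and the 2 single libraries are shown (1 point per library, lines at the stage means). The share of summed RPKM goes from 2.26% in leptotene/zygotene spermatocytes to 0.945% in early elongating spermatids.

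Members differed widely in level, and the order among them was largely kept from stage to stage. Over the 5 stages the 3 highest were Rpl26, a large-subunit protein near the exit tunnel, with a mean of 445 RPKM, Rplp0, the base of the stalk that recruits translation factors, with 395 RPKM, and Rpl41, the shortest ribosomal protein, with 328 RPKM. The 3 lowest were all X-linked: Rpl36a with 0.318 RPKM, Rps4x with 1.13 RPKM and Rpl10 with 1.24 RPKM. The ranks of the 76 members correlated with Spearman's rho of 0.916 between leptotene/zygotene and pachytene/diplotene, 0.970 between pachytene/diplotene and round spermatids, 0.913 between round and early elongating and 0.995 between early and late elongating spermatids. These are descriptions across genes, which share libraries and are not replicates. Over the 5 stages 39 of the 76 members changed by limma's F test, with at least 1 log2 unit between the highest and lowest stage, against 97.2% of all genes tested. The median range was 1.02 among the members and 4.19 among all genes tested. The steadiest member was Rpl38, a large-subunit protein, with stage means between 28.6 and 32.8 RPKM.

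Large-subunit members had lower levels than small-subunit members at every stage, and the gap was wider in elongating spermatids. The median level was 22.4 RPKM over the large and 36.3 RPKM over the small subunit in leptotene/zygotene spermatocytes, 21.1 and 29.8 RPKM in pachytene/diplotene spermatocytes, 16.6 and 24.1 RPKM in round spermatids, 11.2 and 25.3 RPKM in early and 12.6 and 26.4 RPKM in late elongating spermatids. As a log2 difference of medians, large minus small, this was -0.70 ± 0.17, -0.50 ± 0.05, -0.54 ± 0.06, -1.17 ± 0.14 and -1.07 ± 0.03 in the 5 stages. The summed level was nonetheless larger for the large subunit, to which the 3 highest members belong: the summed RPKM of the large subunit was 1.98, 2.17, 2.24, 3.27 and 3.25 times that of the small subunit. In both measures the libraries of early and late elongating spermatids lay apart from those of the other 3 stages, without overlap; no test was made. The levels also became more unequal, with the ratio of the upper to the lower quartile of members going from 3.57 and 3.53 in the spermatocytes to 4.99 in round, 8.17 in early and 8.48 in late elongating spermatids. The 5 highest members held 33.9% of the family's summed RPKM in leptotene/zygotene spermatocytes and 49.6% in early elongating spermatids.

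**Figure D2:**
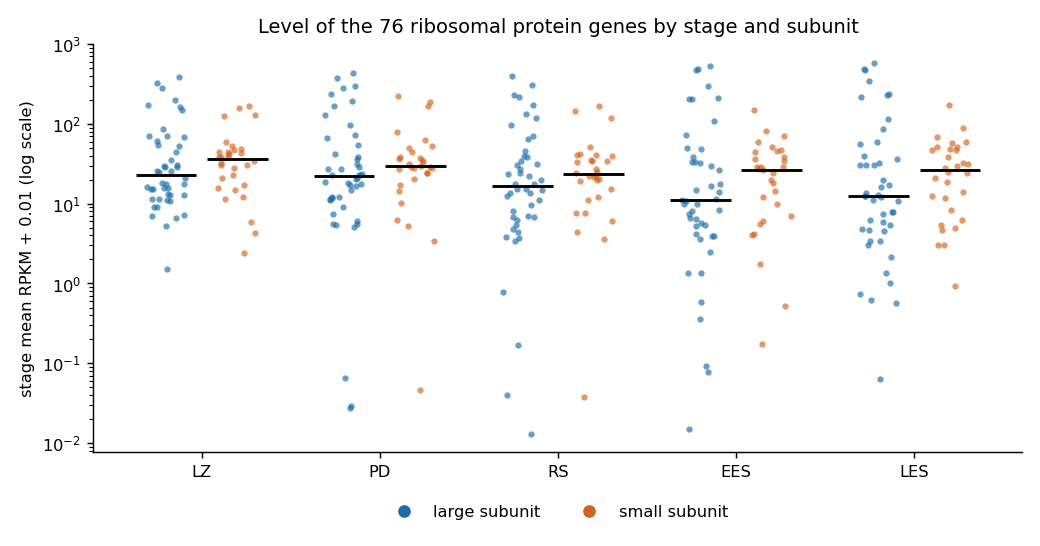
Stage mean level of every member (RPKM + 0.01, log axis), large subunit and small subunit apart, 1 point per gene with the medians as black lines. The medians are 22.4 and 36.3 RPKM in leptotene/zygotene and 11.2 and 25.3 RPKM in early elongating spermatids, and the 4 X-linked genes are the lowest points from pachytene/diplotene to round spermatids.

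From leptotene/zygotene to pachytene/diplotene spermatocytes the 4 X-linked members fell almost to nothing while most autosomal members changed little. No member rose and 10 fell, where 61.2% of all genes tested changed, 25.5% up and 35.8% down. The median change was 0.02 among the members. Rpl39, a small protein in the wall of the exit tunnel (X:37082518-37085222, minus strand, GRCm38), stood at 14.9, 15.2 and 8.26 RPKM in the leptotene/zygotene libraries and at 0.0190, 0.0342 and 0 RPKM in the pachytene/diplotene libraries, the latter resting on 3, 6 and 0 reads. Rpl10, which joins the large subunit late in its assembly (X:74270816-74273135, plus strand), went from 6.71, 4.66 and 4.23 RPKM to 0.0442, 0.0716 and 0.0497 RPKM. Rps4x, a small-subunit protein with a Y-linked partner in humans but not in mice (X:102184941-102189391, minus strand), went from 2.39, 2.51 and 2.33 RPKM to 0.0445, 0.0150 and 0.0491 RPKM. Rpl36a, a large-subunit protein at the exit site for tRNA (X:134585654-134588062, plus strand), went from 1.59, 1.71 and 1.22 RPKM to 0.0384, 0.0197 and 0 RPKM. No library of one stage overlapped one of the other in any of these genes. The log2 changes were -9.04 ± 0.97 (SE) for Rpl39 (adjusted p = 2.84e-06), -6.31 ± 0.58 for Rpl10 (7.06e-07), -5.95 ± 0.68 for Rpl36a (5.06e-06) and -5.81 ± 0.76 for Rps4x (1.55e-05). Their sizes are set in large part by the pseudocount of 0.01 RPKM, since so few reads remained: with 1 RPKM the changes were -3.71, -2.53, -1.29 and -1.72 in the same order, and all 4 still passed.

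Autosomal copies of these X-linked genes were abundant where the parents were low. Rpl39l on chromosome 16 rose from 96.1 to 308 RPKM (log2 change 1.75 ± 0.28, adjusted p = 8.12e-05), Rpl10l on chromosome 12 from 73.2 to 203.2 RPKM (1.61 ± 0.42, adjusted p = 0.00429), and Rpl36al on chromosome 12 from 37.5 to 87.1 RPKM (1.24 ± 0.21). Under quantile normalization these changes were 0.33, 0.22 and 0.17, and that of Rpl36al was 0.81 with values scaled to the reads in genes. Rps4l on chromosome 6, the copy of Rps4x, was at 54.7 RPKM before and 64.7 RPKM after, a change of 0.30 ± 0.59 that did not pass and turned sign under the quantile, read and summed-RPKM scalings. All 4 copies were already well above their X-linked parents in leptotene/zygotene spermatocytes. Replicate 3 of that stage, the library with high pachytene/diplotene markers, had the least Rpl39 and, with 120 RPKM against 51.4 and 47.8, the most Rpl10l. Reads of a parent and its copy can be confused where their sequences are alike, and how the authors treated reads with several matches is not given in the sources used here.

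**Figure D3:**
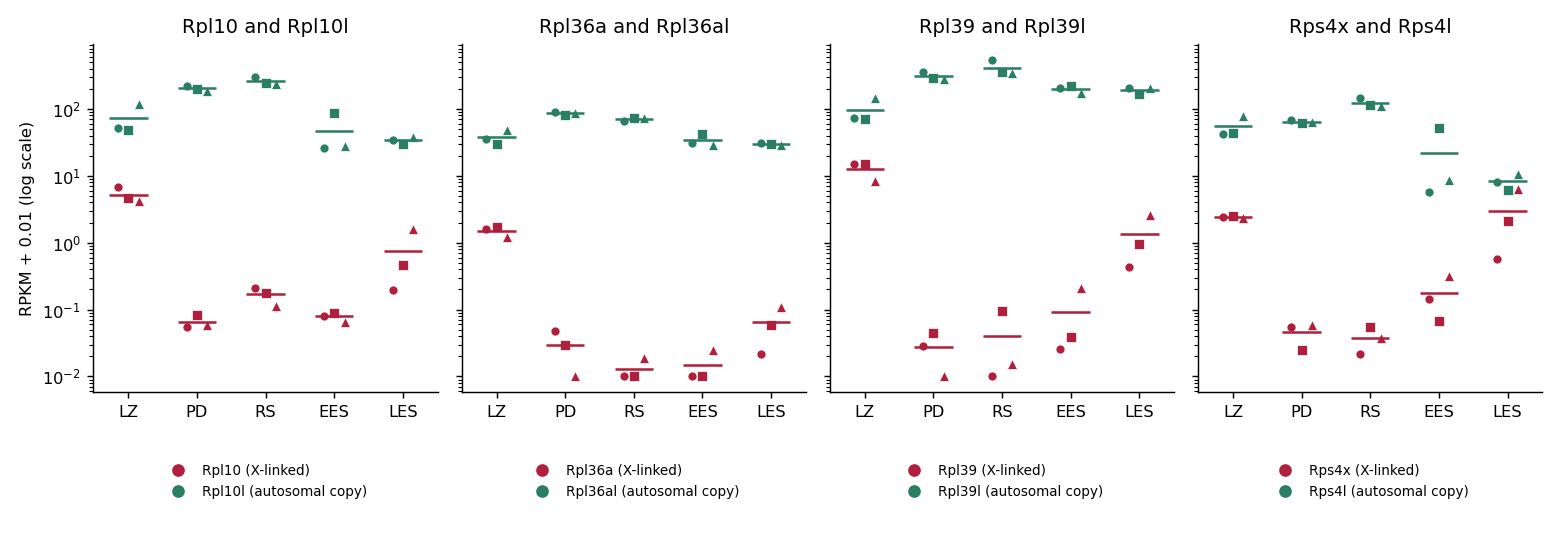
Level (RPKM + 0.01, log axis) of each X-linked member and its autosomal copy in the 15 stage libraries, 1 panel per pair, with points per library (circle, square and triangle for replicates 1, 2 and 3) and lines through stage means. The X-linked genes drop from between 1.22 and 15.2 RPKM to under 0.1 RPKM at pachytene/diplotene, while the copies stay above 20 RPKM up to round spermatids.

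The 6 autosomal members that fell in the same comparison, against 35.8% of all genes, were Rpl10a, Rpl22, Rps12, Rpl14, Rps19 and Rplp1. Rpl10a, a protein of the mobile stalk beside the tRNA exit site (17:28328471-28331033), stood at 16.9, 15.4 and 20.7 RPKM in leptotene/zygotene libraries and at 5.94, 5.51 and 3.98 RPKM in pachytene/diplotene libraries (log2 change -1.79 ± 0.27, adjusted p = 5.40e-05). Rpl22, an RNA-binding protein of the large subunit whose copy Rpl22l1 can replace it, went from a mean of 30.1 to 9.19 RPKM (-1.75 ± 0.24). Rplp1, an acidic stalk protein, went from 392 to 193 RPKM (-1.03 ± 0.20). In Rpl10a and Rpl22, as in the X-linked genes and Rps12, the fall passed under all 4 other scalings, while those of Rpl14, Rps19 and Rplp1 did not pass under every one, though none of the 10 turned sign. Rps19 did not pass without pachytene/diplotene replicate 3, nor Rplp1 without replicate 2 or 3. In number, 19 members had every pachytene/diplotene library above every leptotene/zygotene library and 29 the reverse, against 34.8% and 46.3% of all genes. The 11 Sertoli cell markers, all in the table, summed to 57.3 to 108 RPKM in leptotene/zygotene and 1.16 to 1.43 RPKM in pachytene/diplotene libraries, and the 7 spermatogonial markers to 47.3 to 61.2 and 2.38 to 2.64 RPKM. No marker of either list was at 0 in all libraries of a stage, and their part in the falls was not tested.

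Between pachytene/diplotene spermatocytes and round spermatids the family moved little. No member rose and 4 fell, where 38.6% of all genes changed, 23.4% up and 15.2% down, and the members' median change was -0.33. Rpl10a fell further, from 5.94, 5.51 and 3.98 RPKM to 0.717, 0.901 and 0.720 RPKM (-2.69 ± 0.27). Rpl14, a large-subunit protein, went from 29.3, 22.4 and 16.2 RPKM to 5.47, 4.15 and 3.44 RPKM (-2.36 ± 0.34). Both sets of libraries were well apart. In 2 members every round spermatid library lay above every pachytene/diplotene library and in 34 below, against 38.1% and 34.8% of all genes. The other two that fell were Rps3, a small-subunit protein at the mRNA entry channel that also acts in DNA repair, with means of 29.8 and 12.2 RPKM (-1.28 ± 0.32, adjusted p = 0.00523), and Rpl15, a large-subunit protein, with 20.3 and 9.66 RPKM (-1.07 ± 0.22). All 4 falls passed under every scaling, but Rpl15 did not pass without pachytene/diplotene replicate 1 or without round spermatid replicate 3. The X-linked members stayed low: Rpl10 was at 0.203, 0.170 and 0.103 RPKM in round spermatids, above all 3 pachytene/diplotene libraries but not past the test (1.34 ± 0.58, adjusted p = 0.0751). Without late elongating replicate 1 or replicate 3, which are in the fit that estimates the spread, that change passed.

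From leptotene/zygotene spermatocytes to round spermatids, that is over meiosis as a whole, no member rose and 18 fell, where 67.4% of all genes changed, 34.3% up and 33.1% down. This comparison shares its libraries with those above. In 11 members all round spermatid libraries were higher and in 45 all were lower, against 42.3% and 41.7% of all genes. The 14 autosomal fallers were led by Rpl10a, from 17.7 to 0.779 RPKM (-4.48), Rpl14, from 53.4 to 4.35 RPKM (-3.64), and Rpl22, from 30.1 to 5.41 RPKM (-2.48). Of the 18 falls 14 passed under every scaling, and 17 with every library left out in turn, Rpl31 being lost without leptotene/zygotene replicate 2 or round spermatid replicate 1. Of the large subunit 11 of 46 fell and of the small subunit 7 of 30.

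The change from round to early elongating spermatids split the family. In that comparison 2 members rose and 18 fell, where 70.8% of all genes changed, 15.8% up and 54.9% down; the members' median was -0.02 and that of all genes -1.42. The largest fall was that of Rps27a (11:29545842-29548040, minus strand), made as a fusion of ubiquitin and a small-subunit protein, which stood at 6.97, 8.85 and 7.12 RPKM in round spermatids and at 0.230, 0.821 and 0.506 RPKM in early elongating spermatids (-4.02 ± 0.46). Rpl5 (5:107900508-107909005), which carries the smallest ribosomal RNA into the large subunit and binds the p53 regulator Mdm2, went from 3.26, 3.54 and 3.27 RPKM to 0.124, 1.24 and 0.350 RPKM (-3.10 ± 0.56). Rps3 (7:99477896-99483709, minus strand) went from 11.6, 13.5 and 11.5 RPKM to 1.13, 2.40 and 1.75 RPKM (-2.84 ± 0.32). Rpl4 (9:64173387-64178562), which lines the exit tunnel, went from 83.0, 110 and 96.0 RPKM to 8.97, 22.4 and 12.6 RPKM (-2.81 ± 0.31). In all 18 falling members, and in 31 of the 76, every early elongating library lay below every round spermatid library, against 57.2% of all genes; in 15 they all lay above, against 19.1%. The 4 just named passed under every scaling, and the falls of 6 others turned sign when libraries were centred on their medians (among them Rpl10a, to 0.32, Rpl9, to 0.00, Rps14, to 0.36, Rpl3, to 0.09, and Rpl15, to 0.16), the fall of Rpl10a also under quantile normalization (0.44).

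The 2 that rose were both of the small subunit. Rps20, in the head of that subunit (4:3831584-3835655, minus strand), stood at 28, 28.1 and 26.4 RPKM in round spermatids and at 87.2, 42.5 and 82.5 RPKM in early elongating spermatids (1.29 ± 0.24, adjusted p = 0.000268). Scaled to summed RPKM its change was 0.60, under the size asked for. Rps4x rose from 0.0114, 0.0445 and 0.0278 RPKM to 0.135, 0.0569 and 0.304 RPKM (2.04 ± 0.76, adjusted p = 0.0253), resting on 2, 10 and 6 reads and then 20, 9 and 60 reads. This call depended on the settings: with a pseudocount of 0.1 RPKM the change was 0.95 (adjusted p = 0.152) and with 1 RPKM it was 0.18 (adjusted p = 0.683), the adjusted p was 0.052 with no filter on low values and 0.0885 scaled to summed RPKM, and the rise did not pass without round spermatid replicate 1 or early elongating replicate 3. The 11 Sertoli cell markers, none at 0 throughout a stage, summed to 2.46 to 3.06 RPKM in round spermatids and to 12.6, 5.61 and 18.7 RPKM in early elongating replicates 1, 2 and 3, the same order as Rps4x; their part in the rise was not tested. Rpl10 was at 0.0699, 0.0804 and 0.0563 RPKM in early elongating spermatids, below its 3 round spermatid libraries, and Rpl39 at 0.0154, 0.0288 and 0.201 RPKM, overlapping them; neither passed, except Rpl10 as a fall without late elongating replicate 1 or 3 and Rpl39 as a rise without round spermatid replicate 2. Among the falls, that of Rps14 was lost without early elongating replicate 1 or replicate 3, and that of Rpl10a, at -0.96 and -0.40, with a pseudocount of 0.1 or 1 RPKM.

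**Figure D4:**
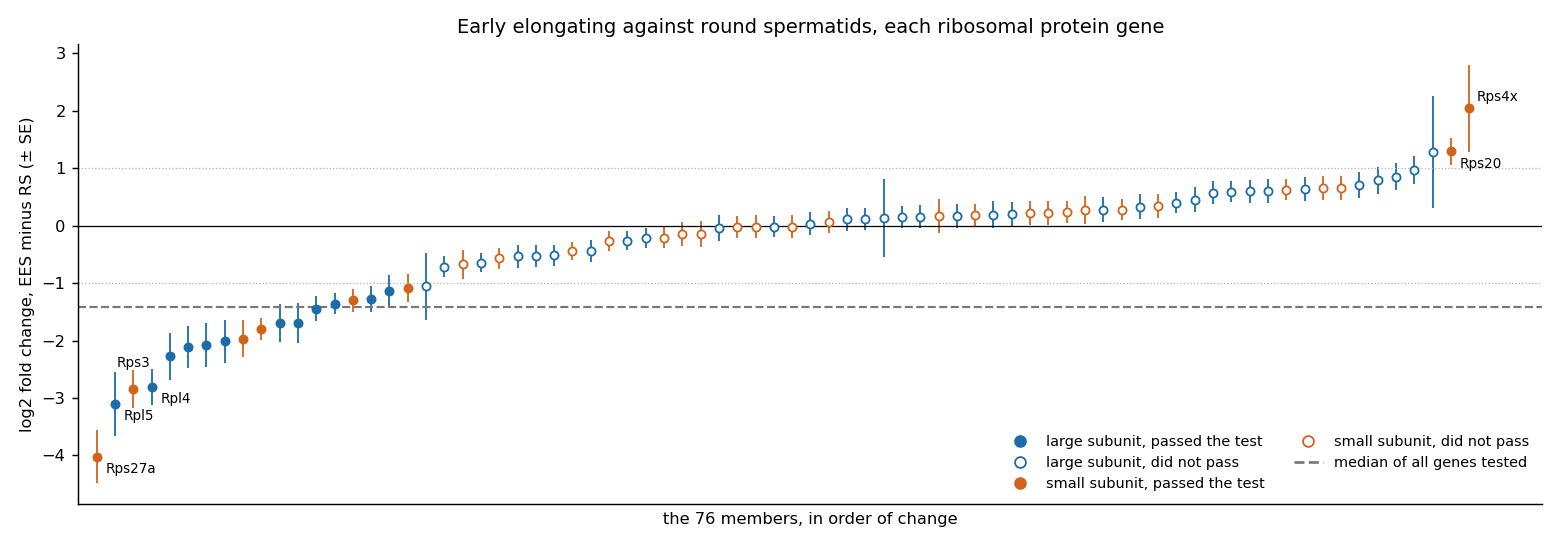
Log2 change of each of the 76 members from round to early elongating spermatids with its SE, in order of size, by subunit, with 6 members labelled; filled points passed the test and the dashed line marks the median of all genes tested, -1.42. The 18 falls run from -4.02 for Rps27a to -1.08 for Rps14, and the 2 rises are Rps4x and Rps20.

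The falling members were not the most abundant ones. The 18 had a median level of 13.5 RPKM in round spermatids and 4.06 RPKM in early elongating spermatids, and the 56 that passed in neither direction had 24.2 and 26.9 RPKM. Rpl26, among the latter, stood at 362, 427 and 400 RPKM and then at 593, 432 and 553 RPKM. Of the large subunit 12 of 46 fell and none rose, and of the small subunit 6 of 30 fell and 2 rose. Among all genes tested 54.9% fell and 15.8% rose. In either direction 26.1% of the large and 26.7% of the small subunit changed. In 14 of the 18 falling members early elongating replicate 2, the library with high round spermatid markers, had the highest level of its stage. In Rps20 it had the lowest. Without that library the falls still numbered 18 and the rises 5, the added ones being Rpl22, Rpl36 and Rpl41; the part of that library's round spermatid markers in the results was not otherwise tested.

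**Figure D5:**
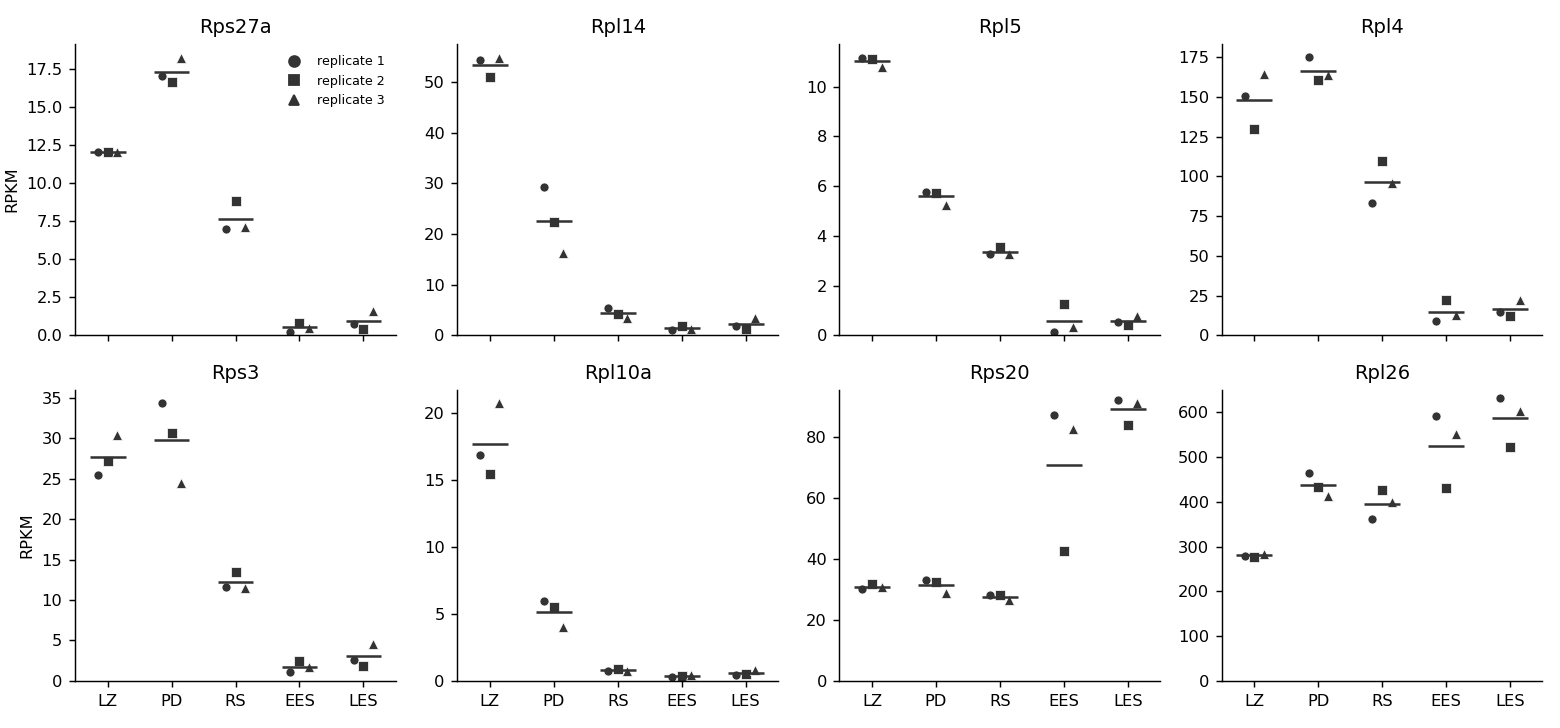
Level in RPKM of Rps27a, Rpl14, Rpl5, Rpl4, Rps3, Rpl10a, Rps20 and Rpl26 in each of the 15 stage libraries, 1 panel per gene. Rps27a goes from 6.97 to 8.85 RPKM in round spermatids to 0.230 to 0.821 RPKM in early elongating spermatids, and the stage means of Rpl10a and Rpl14 decline at each step down to early elongating spermatids.

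Of the ribosomal proteins whose symbols fall outside the rule, Rack1 and Rps3a1 fell. Rack1 on chromosome 11, a scaffold protein on the small subunit, fell from 27.4 to 7.46 RPKM between pachytene/diplotene and round spermatids (-1.85 ± 0.35) and to 0.965 RPKM in early elongating spermatids (-3.0 ± 0.35). Rps3a1 on chromosome 3 fell from 45.3 to 16.8 RPKM (-1.57 ± 0.32), and Fau on chromosome 19, a fusion of a ubiquitin-like and a small-subunit protein, went from 91.7 to 157 RPKM without reaching the size asked for (0.73 ± 0.22). Of the 7 paralogues tested 3 had risen from leptotene/zygotene to pachytene/diplotene spermatocytes, beside 25.5% of all genes. From round to early elongating spermatids 6 of the 7 fell, beside 54.9% of all genes. Rpl22l1 on chromosome 3 went from 52.6 to 8.68 RPKM (-3.72 ± 0.77), Rps27l on chromosome 9 from 39.7 to 5.96 RPKM (-3.61 ± 0.75), Rps4l from 123 to 21.9 RPKM (-3.16 ± 0.59) and Rpl10l from 259 to 46.4 RPKM (-2.70 ± 0.42). Rpl39l, at 415 and then 200 RPKM, and Rpl36al, at 70.5 and 33.9 RPKM, fell by 1.03 and 1.08 on the deposited scale and turned to 0.41 and 0.37 when libraries were centred.

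Late and early elongating spermatids hardly differed. No member passed limma's test in either direction, and of all genes tested 0.00754% did. In 13 members all late elongating libraries were higher than the early ones and in none lower, against 6.62% and 1.54% of all genes. At an unadjusted p under 0.05 in limma's test, 7 members were higher in late elongating spermatids and none lower. Of all 13260 genes tested 886 were higher and 33 lower, so the lean upward was not particular to the members. The 7 were the 4 X-linked members and, named after their values were seen, Rpl10a (0.75 ± 0.27), Rps3 (0.75 ± 0.32) and Rpl9 (0.46 ± 0.21). Rps4x stood at 0.570, 2.09 and 6.37 RPKM in the late elongating libraries, Rpl39 at 0.427, 0.961 and 2.62 RPKM and Rpl10 at 0.183, 0.451 and 1.58 RPKM, each above its 3 early elongating libraries (3.77 ± 0.76, adjusted p = 0.0948; 4.13 ± 0.97, adjusted p = 0.177; 2.73 ± 0.58, adjusted p = 0.110). Without late elongating replicate 1, Rpl10 and Rps4x passed. In all 4 X-linked members replicate 3 was the highest and replicate 1 the lowest. The 5 macrophage markers, all in the table, summed to 3.10, 11.7 and 47.5 RPKM in the same 3 libraries, and to between 1.39 and 1.6 RPKM in the early elongating ones; the 11 Sertoli markers summed to 25.1, 12.4 and 42.0 RPKM, and to between 5.61 and 18.7 RPKM. None of these markers was at 0 throughout a stage. Their part in the X-linked values was not tested.

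Set against round spermatids, late elongating spermatids had 8 members higher and 16 lower, where 72.7% of all genes changed, 17.4% up and 55.4% down. In 31 members every late elongating library was higher than every round spermatid library and in 28 every one was lower, against 22.5% and 63.2% of all genes. Rps4x (5.81 ± 0.76) and Rpl39 (5.41 ± 0.97) led the rises and still passed without late elongating replicate 3, at 4.97 and 4.74, and with a pseudocount of 1 RPKM, at 1.68 and 1.07. Rpl10 (1.68 ± 0.58) and Rpl36a did not pass without that replicate, at adjusted p = 0.0762 and 0.0617, nor with that pseudocount; Rpl10 was lost also without round spermatid replicate 3 and scaled to summed RPKM (0.95), and Rpl36a with quantile normalization. Rpl36a rested on 2 reads over the 3 round spermatid libraries and 29 over the late elongating ones, so no fold is given. Rps20, at 92.1, 83.7 and 91.0 RPKM, was the largest autosomal rise (1.69 ± 0.24), followed by Rpl22 (1.26), Rpl41 (1.03) and Rpl36 (1.00). Rpl41 did not pass without round spermatid replicate 2 or late elongating replicate 1, nor Rpl36 without round spermatid replicate 3 or late elongating replicate 1. Rpl41 turned to just under 0 with quantile normalization. The falls were led by Rps27a (-3.28), Rpl5 (-2.60) and Rpl4 (-2.59), as in early elongating spermatids, with which this comparison shares its round spermatid libraries. Rps27a stood at 0.732, 0.391 and 1.6 RPKM and Rpl4 at 14.4, 12.3 and 22.5 RPKM, all below the round spermatid range. Of the 16 falls 5 turned sign in at least 1 other scaling, and of the 24 calls 5 passed under every scaling: Rpl5, Rps4x, Rpl39, Rpl4 and Rps27a.

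By the stage of the highest mean on the deposited scale, members were divided mainly between the 2 spermatocyte stages. The highest mean fell in leptotene/zygotene spermatocytes for 30 members, in pachytene/diplotene spermatocytes for 29, in late elongating spermatids for 14 and in early elongating spermatids for 3, and in round spermatids for none. The same count was not made over all genes, nor under another scaling. Centring libraries on their medians added 47 rises among members from round to early elongating and 47 from round to late elongating spermatids. The stage of the highest mean can therefore depend on the scaling. Of the large subunit 26 of 46 and of the small subunit 13 of 30 changed over the 5 stages, against 97.2% of all genes tested. Among autosomal members the widest log2 ranges of stage means were those of Rpl10a (5.61), Rpl14 (5.33) and Rps27a (5.21). For the X-linked members no range is given, since at their lowest stages they rest on a few reads and the pseudocount sets its size.

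Other parts of the translation machinery are set beside the shares of all genes tested that changed, 61.2% from leptotene/zygotene to pachytene/diplotene and 70.8% from round to early elongating spermatids. Genes named as proteins of the separate ribosome of mitochondria were taken by symbol alone, and whether each belongs to that ribosome was not checked. Of 77 tested, 16 rose and 10 fell from leptotene/zygotene to pachytene/diplotene, together 33.8% of the list. From round to early elongating spermatids 3 rose and 54 fell, together 74%. The median change was then -2.33, beside -0.02 for the cytosolic members and -1.42 for all genes. The mitochondrial set was led at the latter step by Mrpl44, from 5.18 to 0.192 RPKM (-4.62 ± 0.39), and in the other direction by Mrps36, from 1.35 to 17.8 RPKM (3.70 ± 0.22). Its share of summed RPKM was 0.455% in leptotene/zygotene, 0.527% in pachytene/diplotene, 0.386% in round and 0.124% in early elongating cells. Of 48 ribosome biogenesis genes, 6 rose and 21 fell at pachytene/diplotene, 56.2% of the list, and none rose and 37 fell at early elongation, 77.1% (median -2.23). In the total that changed, both lists were near the share of all genes at early elongation and below it at pachytene/diplotene. By direction both leaned more to falls at early elongation than all genes, of which 15.8% rose and 54.9% fell. Tsr2, an X-linked escort of a small-subunit protein, fell from 6.31 to 0.0213 RPKM at pachytene/diplotene, Sbds, a factor that frees new large subunits, rose from 9.41 to 88.3 RPKM (3.42 ± 0.34), and Nolc1, a nucleolar protein, fell from 15.5 to 0.418 RPKM at early elongation (-5.23 ± 0.33). The lists were not tested against each other.

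Of 33 initiation factor genes, 9 rose and 7 fell at pachytene/diplotene, 48.5% of the list beside 61.2% of all genes, and 7 rose and 11 fell at early elongation, 54.5% beside 70.8%. The X-linked Eif2s3x, a subunit of the factor that brings the first tRNA, fell from 1.5 to 0.0027 RPKM at pachytene/diplotene. At early elongation Eif1ax, also X-linked and a factor in start codon choice, rose from 0.745 to 23.8 RPKM (4.92 ± 0.36) and Eif6, which keeps the subunits apart, fell from 12 to 0.982 RPKM (-3.65 ± 0.31). Of 12 elongation and termination genes, 1 rose and 5 fell at pachytene/diplotene, and 2 rose and 4 fell at early elongation, 50% at either step and below all genes. Eef2, the translocase, rose from 210 to 474 RPKM (1.2 ± 0.20) at the former step, and at the latter Eef1d, a nucleotide exchange factor, rose from 20.5 to 253 RPKM (3.59 ± 0.26) and Gspt1, a release factor, fell from 23.7 to 1.87 RPKM (-4.02 ± 0.47). Of 12 genes that regulate mRNAs with a terminal pyrimidine tract, 2 rose and 7 fell at the former step, 75%, and 1 rose and 5 fell at the latter, 50%. Larp1, which binds that tract, rose from 21.5 to 64.3 RPKM at pachytene/diplotene (1.63 ± 0.28), and Eif4ebp1, which restrains cap-dependent initiation, fell by 4.75 ± 0.23 there and rose by 3.5 ± 0.23 at early elongation, to 5.32 RPKM. Rheb, which activates the mTOR kinase, fell by 4.27 ± 0.41 at early elongation.

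The rule did not use the sequence at the genes' starts, and that was read from RefSeq promoters of build GRCm38.p6 (250 bases before to 50 after the annotated start). The promoter table held 66 promoters for 56 of the 76 members. The pyrimidine-rich word CTTTCC was present on either strand in 50% of member promoters and in 25.9% of the 21263 promoters of protein-coding genes; TTTCCG was in 36.4% and 10.6%, and CCTTTC in 43.9% and 23%. These 3 words overlap each other and so are not separate counts. The word CCGGAAG, read by ETS factors, was in 36.4% and 11.6%, AAGATGG, read by YY1, in 16.7% and 6.24%, GGGCGG, read by Sp1, in 60.6% and 46.2%, and TATAAA in 9.09% and 12.6%. The 17 promoters of members that fell at early elongation held CTTTCC in 52.9% and TATAAA in none, and the 49 of other members held them in 49% and 12.2%. Stretches around this word, 30 bases 5′ to 3′ on the gene's strand with CTTTCC in capitals, are shown as examples from members with different courses. First come an X-linked member and the autosomal copies of 2 X-linked members. Next come members that fell at early elongation and, among them, Rpl22, which fell at pachytene/diplotene but not at early elongation. Last are Rpl26, the highest, and Rpl38, the steadiest. The stretches were chosen because they hold the word. In most of them it does not begin at the annotated start, as a terminal pyrimidine tract would.
Rpl36a: gctctagcctctctCTTTCCgagctgctag
Rpl36al: ctctgttcgtccCTTTCCtgttcggcgcgt
Rpl39l: tagctcccaggcCTTTCCggatttccggtg
Rpl10a: gcgctctgccttCTTTCCggtttccgcggc
Rpl22: tctgactcctccCTTTCCcgacagccgact
Rpl4: caagtgacaagtCTTTCCttttcctgtggg
Rpl35a: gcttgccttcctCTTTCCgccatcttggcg
Rps10: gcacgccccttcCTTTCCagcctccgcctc
Rpl26: gcgtgtagttctCTTTCCttttgcggccat
Rpl38: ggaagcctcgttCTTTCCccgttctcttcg

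These stretches lie, in the same order, at chrX:134585674-134585703 (plus strand), chr12:69184019-69184048 (minus), chr16:10170210-10170239 (plus), chr17:28328574-28328603 (plus), chr4:152325682-152325711 (plus), chr9:64173358-64173387 (plus), chr16:33056472-33056501 (plus), chr17:27635223-27635252 (minus), chr11:68901579-68901608 (plus) and chr11:114668568-114668597 (plus). Counted with the annotated start as base 1 and bases before it as negative, the first base of CTTTCC lies at 35 in Rpl36a, 32 in Rpl36al, -6 in Rpl39l, 22 in Rpl10a, -32 in Rpl22, -17 in Rpl4, 5 in Rps10, 26 in Rpl26 and 1 in Rpl38. Rpl35a has 3 annotated starts, from which it lies at 32, 3 and -30. Only in Rpl38 among these does the word begin at the annotated start. A match is a description of the letters, not of a terminal tract or of a bound or used site.

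Gene structure differed among members in ways that touch their RPKM. The exon length used in the table had a median of 1776 bases per member and the main mRNA of the GENCODE annotation one of 882 bases. The ratio of the 2 ran from 0.868 to 6.79 with a median of 1.98, so that RPKM understates members with long alternative exons. Counted per kilobase of the main mRNA instead, the 3 highest members were Rpl41 (659), Rplp0 (482) and Rpl26 (387). A small nucleolar RNA annotated by GENCODE lay inside 29 members. At least 1 near-identical copy, among GENCODE transcripts of other protein-coding genes and pseudogenes, was found for 67. Of the 9 without such a copy 4 fell and none rose from round to early elongating spermatids. Of the 67 with one 14 fell and 2 rose, and of all genes tested 54.9% fell and 15.8% rose. The part of copies in the falls was not tested. Rps27 and its retrotransposed copy Rps27rt had nearly the same read number in each stage library (copy to parent ratio 0.970 to 0.994). With the single libraries included the ratio went down to 0.918. How reads that match both genes were counted is not known and was not tested. Across members Spearman's rho of level with the length ratio was -0.42 and with the number of copies -0.32, as a description. The change from round to early elongating spermatids ranked with these features by between -0.29 and 0.03.

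In the single library of juvenile round spermatids, 17 members lay above the range of the 3 adult round spermatid libraries, 53 below and 6 within, against 32.8% above and 46.9% below among all genes. In the Prm1-EGFP library 9 lay above the range of the 6 elongating libraries, 43 below and 24 within, against 24.6% and 18.2%. The members' share of summed RPKM was 0.790% and 0.486% in these 2 libraries, and the median large-minus-small difference -0.22 and -0.47. Rpl29, a large-subunit protein that binds heparin, was low in both, at 3.10 RPKM against 64.3 to 76.5 in adult round spermatids and at 3.38 RPKM against 85.3 to 129 in the elongating libraries. Rpsa, a small-subunit protein that also serves as laminin receptor, was at 2.52 and 2.67 RPKM against 22.8 to 25.9 and 22.8 to 34.5 RPKM. These genes were chosen after their values were seen. Rpl29 has 9 near-identical copies among other genes and Rpsa 4. Reads of Rpl32l, outside the rule, were 0.00361 to 0.00594 of those of Rpl32 in the stage libraries. With the 2 single libraries included this ratio reached 0.149. For Rpl37rt and Rpl37 it was 3.01 to 4.65 and went down to 1.89. The part of copies in the values of the 2 single libraries was not tested. Age, reporter, dye, the group named in the column headers and library cannot be told apart with 1 library each.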

How the data were processed

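The values analysed are the authors' deposited log2 table, one column per library, in which a value equals log2(100 × RPKM + 1); RPKM was recovered as (2 to the power of the value, minus 1) divided by 100. The submitters' processing notes name Trim Galore, STAR and the build GRCm38; for their versions, the strand setting and the treatment of reads with several matches the sources used here give nothing. For 23714 of 23715 genes with reads, values fell on whole reads within 0.01 read, which gave each library's depth (90.6 to 137.8 M reads in the stage libraries, 159.2 and 149.2 M reads in the single ones).

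Genes with at least 1 RPKM in at least 3 of the 15 stage libraries (13260) were tested with limma 3.58.1 (R 4.3.3; empirical Bayes with trend, pseudocount 0.01 RPKM), all 15 libraries in 1 fit, p-values Benjamini-Hochberg adjusted over all genes. Calls need an adjusted p under 0.05 and a log2 change of at least 1. Symbols came from RefSeq (24570 of 24594 genes matched). Main mRNAs, small nucleolar RNAs and the transcripts searched for copies came from GENCODE. Tables and figures used Python 3.11.15, pandas 2.3.3, numpy 2.4.6 and matplotlib 3.10.9, and copies were found with blastn 2.17.0 (identity of at least 98% over 50 bases). The test was tested on simulated data.

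Alternatives were median centring, quantile normalization, scaling to reads in genes or to summed RPKM, other pseudocounts and filters, a replicate block, and leaving out each library. The members and lists were chosen with earlier results of these data known. Named by rule were the X-linked members, the 3 highest and 3 lowest, in each comparison the 2 largest rises and falls and calls against the main direction, ribosomal proteins with other symbols, paralogues, and the largest called rise and fall of each translation list; other names were chosen after their values were seen. The table of newly assembled transcripts was not used here. Some genes are not reported here.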

Additional observations from a re-analysis of the deposited data

Results flagged for a closer look

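In the 2 libraries that enter no test, 3 members stood well above every replicated library of the nearest stage, by at least 3 times and at 5 RPKM or more. Rpl5 was at 53.7 RPKM in the juvenile round spermatid library, where the adult round spermatid libraries held 3.26 to 3.54 RPKM, and at 7.88 RPKM in the Prm1-EGFP library, where the elongating libraries held 0.124 to 1.24 RPKM. Rpl27a was at 23.9 RPKM in the Prm1-EGFP library against 4.36 to 7.61 RPKM. Rpl13 was at 49.8 RPKM in the juvenile library against 11.2 to 14.2 RPKM. Each rests on 1 library, so there is no replicate error. Rpl5 has 3 near-identical copies, Rpl27a 4 and Rpl13 3, and their part in these values was not tested. Age, reporter, dye, the group named in the column headers and library cannot be told apart here either.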

How the results depend on the processing

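Scaling moved the counts most. Of members called from leptotene/zygotene to pachytene/diplotene (10 as reported), median centring gave 19, with 12 rises and 7 falls, quantile normalization 41, reads in genes 20 and summed RPKM 18. From pachytene/diplotene to round spermatids (4) centring gave 11 and quantile 8. From round to early elongating spermatids (20) centring gave 53, with 49 rises and 4 falls, and quantile 19, with 12 and 7. From leptotene/zygotene to round spermatids (18) quantile gave 60, reads in genes 38 and summed RPKM 39. From round to late elongating spermatids (24) centring gave 58, with 55 rises and 3 falls, and quantile 31, with 26 and 5. Over the 5 stages (39), centring gave 72, quantile 70 and summed RPKM 67. With the X-linked members left out, the large-minus-small difference was -0.41 in pachytene/diplotene and -0.41 in round spermatids, and the SD of log2 levels over members was 1.47, 1.63, 1.75, 2.32 and 2.23 in the 5 stages against 1.61, 2.71, 2.72, 2.95 and 2.53 with them. Rpl10a from round to early elongating spermatids turned to 0.32 (centring) and 0.44 (quantile), and from round to late elongating spermatids Rpl14 turned to 0.43 under both and Rpl41 to -0.0045 (quantile). The cause was not tested. Leaving out each library gave 8 to 11, 3 to 6, 18 to 23, 0 to 2 (late against early elongating), 17 to 22, 22 to 24 and 38 to 42 members called. The share of the summed RPKM of all genes was 2.26, 1.81, 1.32, 0.945 and 0.980%, against shares of reads in genes given with the results.

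With the replicate number as a block the counts were 10, 4, 20, 0, 18, 24 and 39, as without it. Deviations of same-numbered libraries from their stage means correlated by -0.25 to 0.24. Such values cannot show whether same-numbered libraries shared an animal or a sort, and no pairing was assumed. Few reads limit the X-linked genes after leptotene/zygotene.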
